A study of Mus musculus with 6 samples.

Results

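The carbonic anhydrase genes of mouse gastrocnemius muscle were compared between animals whose muscle fibres lack the transcription factor IRF4 and animals whose fibres overexpress it. The 9 genes were taken by symbol from the count table, which lists 24054 genes: Car2, Car3, Car4, Car5b, Car8, Car11, Car12, Car13 and Car14. The table holds 16 carbonic anhydrase symbols in all, and the 9 were listed by people who knew expression results of these libraries, with no stated value or threshold. They were thus in effect selected on earlier expression values of these 6 libraries. Levels and differences below are therefore descriptions, and the p-values describe the fit over all genes without being independent evidence. Of the other 7 symbols, Car1, Car7 and Car9 are described beside the family.

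Gastrocnemius RNA of male C57BL/6 mice was sequenced in 6 libraries. The 3 MI4KO libraries came from mice with a muscle-specific IRF4 knock out (Irf4 flox/flox with Myl1-Cre), and the 3 MI4OE libraries from mice with muscle-specific IRF4 overexpression (Rosa26-LSL-Irf4 with Myl1-Cre). Both groups thus carry the Cre that Myl1, a skeletal muscle myosin light chain gene, drives in muscle fibres, and cells of the muscle outside the fibres are not targeted. The labels give a high fat diet for each library, the paper of the study has its animals on chow, and neither gives an age for these animals. Each difference below is between loss and excess of IRF4, with no flox or wild-type library in it, so a higher level in MI4OE cannot be told apart from a lower one in MI4KO.

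Total expected counts, the RSEM estimates of reads per gene, ran from 18828605 to 29239585 per library. Fast-fibre genes, which mark gastrocnemius, had the highest summed level of the marker lists in every library, and Myh4, the fastest myosin heavy chain, was at 39865 to 110582 CPM (counts scaled to a fixed library total). Irf4 was at 0.246, 0 and 0.0672 CPM across MI4KO replicates 1, 2 and 3 and at 141, 369 and 261 CPM across MI4OE replicates 1, 2 and 3, so each library matched its label. MI4OE replicate 1 stood apart by its slow-fibre genes, whose summed level was 7397 CPM against 41.5 to 714 CPM in the other 5 libraries, and its values are named wherever they decide a result.

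Carbonic anhydrases are zinc enzymes that interconvert carbon dioxide with bicarbonate and a proton, and in muscle they help to carry carbon dioxide and acid out of the fibre. The family members are best told apart by where they sit. Car2, Car3 and Car13 are cytosolic, Car5b is mitochondrial, Car4 is anchored by a lipid to the outer face of the membrane, and Car12 and Car14 span it. Car8 and Car11 are carbonic anhydrase-related proteins that lack catalytic activity. Car3 is a slow enzyme known for its very high abundance in slow muscle fibres and in adipocytes.

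Car3 made up nearly all carbonic anhydrase RNA in each library. In TPM, a transcript scale that allows for gene length, it was at 1803, 2052 and 2863 TPM in MI4KO replicates 1, 2 and 3 and at 1270.5, 672 and 1057 TPM in MI4OE replicates 1, 2 and 3. The MI4KO libraries were all above the MI4OE libraries, and by TPM Car3 ranked between 35 and 39 among all genes in MI4KO and between 102 and 153 in MI4OE. Its share of the summed TPM of the 9 genes was 96.9%, 98.2% and 98.5% in the MI4KO libraries against 95.9%, 95.7% and 96.5% in the MI4OE libraries. The mean share was 97.9% ± 0.870 (SD, n = 3) in MI4KO and 96.0% ± 0.396 (SD, n = 3) in MI4OE.

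The level of the family therefore followed Car3. The summed TPM of the 9 genes was 2286 ± 549 (SD, n = 3) in MI4KO and 1041 ± 315 (SD, n = 3) in MI4OE, with no overlap between the groups. Without Car3, the other 8 genes summed to 58.0, 38.3 and 42.4 TPM in MI4KO and to 54.2, 30.3 and 38.9 TPM in MI4OE, and these groups overlapped.

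**Figure D1:**
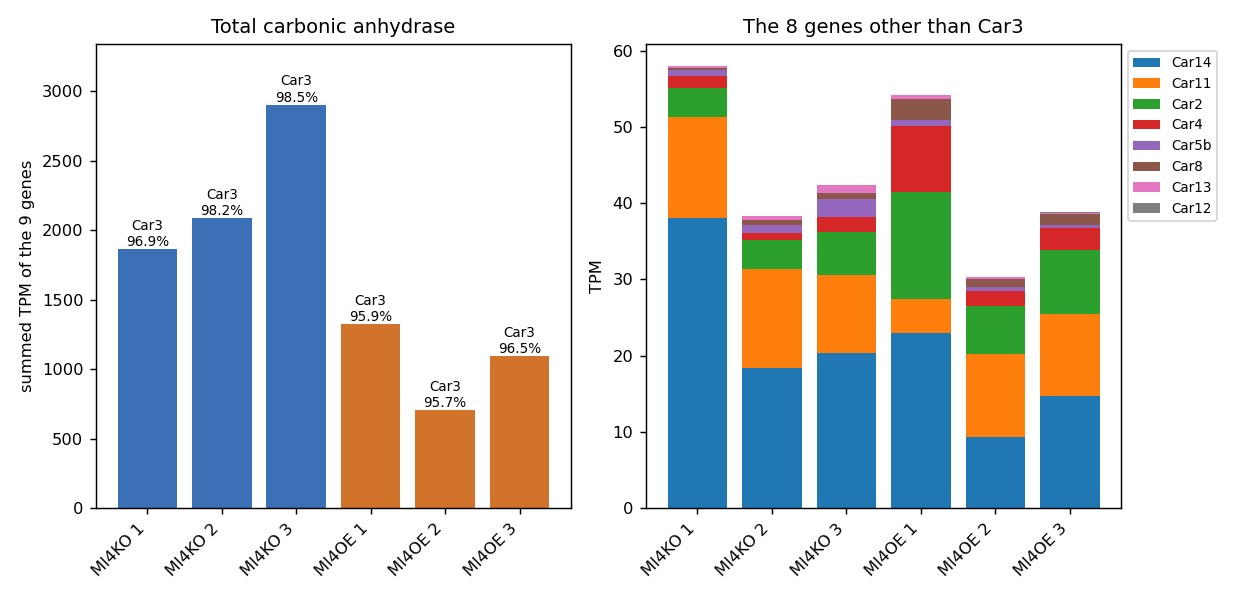
Left, summed TPM of the 9 carbonic anhydrase genes in each library, with the share of Car3 above each bar. Right, TPM of the 8 genes other than Car3, stacked by gene. Bars are single libraries. The totals lie between 1861 and 2906 TPM in MI4KO and between 702 and 1325 TPM in MI4OE, while the stacks without Car3 overlap between groups.

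Behind Car3, the order of mean TPM over the 6 libraries was Car14, Car11, Car2, Car4, Car8, Car5b, Car13 and Car12. Car3, at 672 to 2863 TPM, was clear of all others. Car14 ran from 9.34 to 38.1 TPM, Car11 from 4.47 to 13.2 TPM and Car2 from 3.73 to 14.1 TPM, so neighbours in this order overlapped. Car4 ran from 0.970 to 8.66 TPM, Car8 from 0.240 to 2.65 TPM, Car5b from 0.410 to 2.37 TPM and Car13 from 0.20 to 0.98 TPM, and each of these 4 ranges overlapped that of its neighbour. Car12 lay below all of them with at most 0.10 TPM, and here the ranges did not meet.

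The makeup of this remainder is given as a description, with no test. Of the TPM outside Car3, Car14 took 53.9% ± 10.2 (SD, n = 3) in MI4KO and 37.0% ± 5.83 (SD, n = 3) in MI4OE. Car2 took 6.72%, 9.73% and 13.5% in MI4KO replicates 1, 2 and 3, against 26.1%, 20.7% and 21.9% in MI4OE replicates 1, 2 and 3. Each MI4OE share of Car2 was above each MI4KO share. Car4 took 2.53% to 4.6% in MI4KO and 6.89% to 16.0% in MI4OE, and Car8 took 0.414% to 1.93% and 3.40% to 4.89%, again without overlap. Car11 took 22.7% to 34.0% in MI4KO and 8.25% to 35.7% in MI4OE, with its lowest share in MI4OE replicate 1.

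Of the 9 genes, 8 had enough counts to be tested. Car12 was left out by the filter on low counts, with 7 counts over the 6 libraries. In edgeR's quasi-likelihood fit over 12660 genes, 0 of the 8 passed an adjusted p of 0.05, where 0.0237% of all genes did. Among the 8, 5 had an unadjusted p under 0.05, where 7.58% of all genes did. With DESeq2, Car3 alone of the 8 passed (adjusted p = 0.0326), in a test that passed 111 genes or 0.877% of those with an adjusted p. The exact test of edgeR passed 0 of the 8 and 0.885% of all genes, and limma passed 0 of the 8, where 0.0316% of all genes passed on log2(TPM + 1) and 0.0395% on log2(TPM + 0.1). By the study's own criterion, at least 1.5-fold with an unadjusted p under 0.05, 5 of the 8 met it, where 6.64% of all genes did. Of these 5, Car2, Car4 and Car8 were higher in MI4OE, a direction that 4.36% of all genes took at this criterion. Car3 and Car5b were lower in MI4OE, as were 2.28% of all genes. At this criterion the fit gave 552 genes higher and 289 lower in MI4OE. The paper, at the same cutoffs, reports more genes lower than higher in MI4OE, and the reason for this difference was not tested. In CPM, the scale of the overlaps described below, the groups did not overlap in 4 of the 8 genes, Car3, Car5b, Car8 and Car11, where 12.9% of all genes did not overlap. In TPM they did not overlap in 5, Car2, Car3, Car4, Car5b and Car8, where 11.2% of all genes did not. The median log2 fold change of the 8 was -0.70 (3 higher and 5 lower in MI4OE), beside -4.3e-05 over all genes tested.

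**Figure D2:**
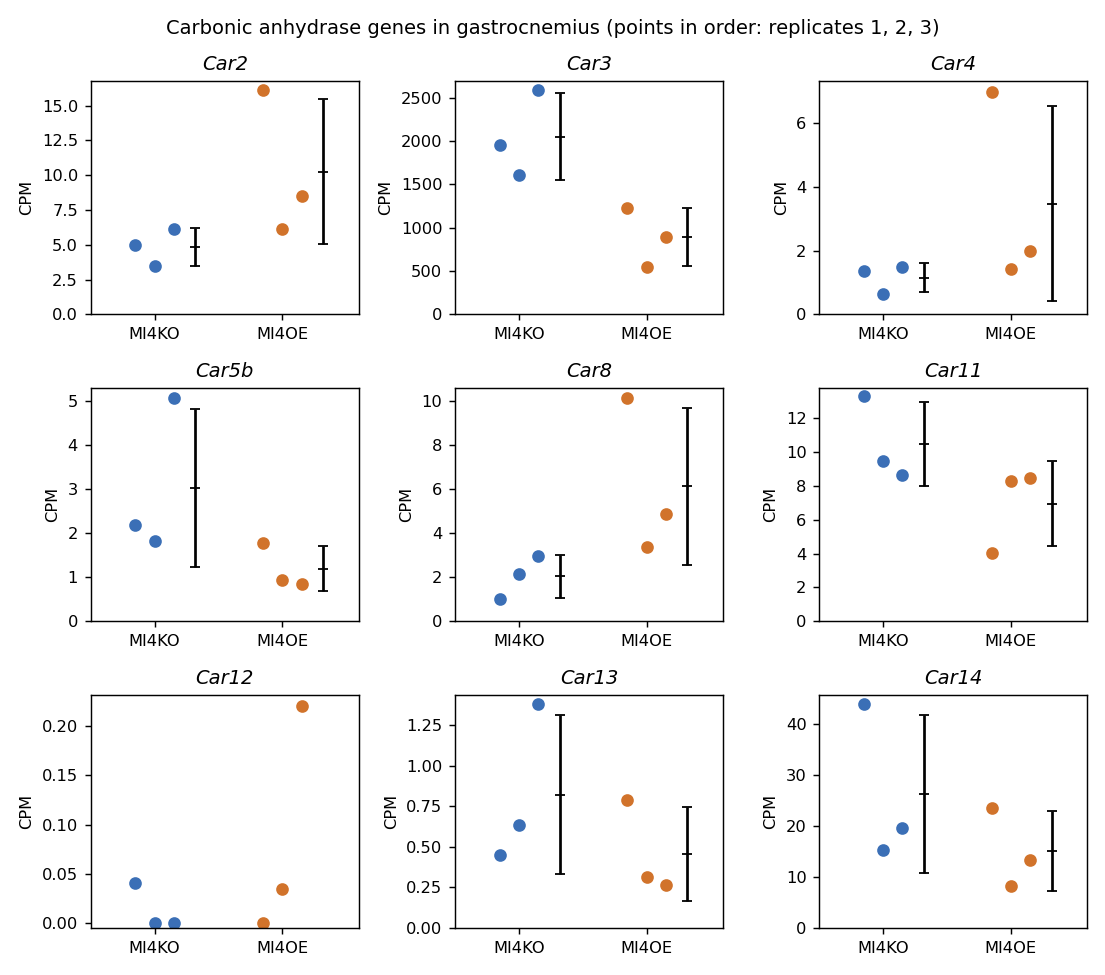
CPM of each carbonic anhydrase gene in the 6 libraries, with a scale of its own for each gene. Points are libraries in the order of replicates 1, 2 and 3, and bars give the mean ± SD (n = 3), which is not drawn for Car12 with its 7 counts in all. MI4KO lies above MI4OE without overlap for Car3, Car5b and Car11, and below it for Car8.

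Among the cytosolic enzymes, Car3 was at 1949, 1601 and 2589 CPM across MI4KO replicates 1, 2 and 3 and at 1224, 551 and 894 CPM across MI4OE replicates 1, 2 and 3. The highest library was MI4KO replicate 3, the lowest MI4OE replicate 2. The level was 2.30-fold lower in MI4OE, a log2 fold change of -1.20 (SE 0.33), with an unadjusted p of 0.0075 and, by edgeR, an adjusted p of 0.521. Over 15 alternative settings the log2 fold change lay between -1.50 and -0.95, and Car3 met the study's criterion in each of them. In whole muscle, fewer cells of a type and less RNA per cell cannot be told apart.

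Cells other than fast fibres also express Car3, so their markers were read beside it. The adipocyte list summed to 1236, 2039 and 3875 CPM across MI4KO replicates 1, 2 and 3 and to 1922, 898 and 1020.1 CPM across MI4OE replicates 1, 2 and 3. These sums overlapped, and of 14 tested adipocyte genes 11 were lower and 3 higher in MI4OE, with 9 lower by the study's criterion (2.28% of all genes), 0 at an adjusted p of 0.05 and none at 0 CPM. The median log2 fold change of the 14 was -2.42, and Adipoq, Plin1, Cfd, Lep, Cidec and Retn, genes largely restricted to fat cells, were 11.6- to 16.8-fold lower in MI4OE. Adipoq was at 9.58, 17.7 and 81.4 CPM across MI4KO replicates 1, 2 and 3 and at 0.886, 5.94 and 1.37 CPM across MI4OE replicates 1, 2 and 3, without overlap. Within MI4OE it was highest in replicate 2, where Car3 was lowest. MI4KO replicate 3, highest for Car3, also had the highest adipocyte sum. The largest parts of the 1922 CPM in MI4OE replicate 1 were Lpl, Pnpla2, Fabp4 and Acsl1, at 760, 466, 260 and 227 CPM. Adipoq, Plin1, Cfd, Lep, Cidec and Retn were each at their lowest of the 6 libraries in MI4OE replicate 1. The slow-fibre list summed to 41.5 to 144 CPM in MI4KO and to 7397, 55.4 and 714 CPM across MI4OE replicates 1, 2 and 3, and all 10 of its tested genes were higher in MI4OE, 8 of them by the criterion (4.36% of all genes) and 0 after adjustment. Of its markers, only Tnni1 was at 0 CPM, in MI4OE replicate 2. The slow-fibre sums overlapped through MI4OE replicate 2, and within MI4OE Car3 was highest in the library with the most slow-fibre RNA. The part of either cell type in the level of Car3 was not tested.

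Car2, the fast and widely expressed cytosolic enzyme that is also abundant in red cells, went the other way. It was at 4.99, 3.45 and 6.15 CPM across MI4KO replicates 1, 2 and 3 and at 16.1, 6.12 and 8.52 CPM across MI4OE replicates 1, 2 and 3. The groups overlapped only between MI4KO replicate 3 and MI4OE replicate 2. Its level was 2.1-fold higher in MI4OE, the log2 fold change being 1.07 (SE 0.38) with an unadjusted p of 0.0253 and, by edgeR, an adjusted p of 0.574. MI4OE replicate 1 carried much of this difference, since without it the log2 fold change was 0.58 with an unadjusted p of 0.0842. The criterion was also missed without MI4KO replicate 1 or 2.

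Car2 and Car3 are next to each other on mouse chromosome 3, in the order Car13, Car1, Car3, Car2 in the RefSeq annotation of GRCm38.p6. Because both are read in the same library, their ratio needs no scaling between libraries. There were 390, 464 and 421 Car3 counts for each Car2 count in MI4KO replicates 1, 2 and 3. The MI4OE replicates, in the same order, had 75.8, 90.1 and 105. The ratio was 425 ± 37.2 (SD, n = 3) in MI4KO and 90.3 ± 14.5 (SD, n = 3) in MI4OE. On the log2 scale of Car2 over Car3, the groups were 2.25 apart, with an SD of 0.13 in MI4KO and 0.23 in MI4OE. The ratio was chosen after the values of both genes were seen and carries no test. The ratio varied less within MI4OE than Car3 alone, which ranged from 551 to 1224 CPM. Car2 and Car3 were both highest in MI4OE replicate 1 and both lowest in MI4OE replicate 2. In MI4KO both were lowest in replicate 2 and highest in replicate 3. Car4, on chromosome 11, had the same order of replicates in both groups. Car8 and Car14 had it within MI4OE, and Car5b within MI4KO, so the order was not particular to the neighbouring pair.

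**Figure D3:**
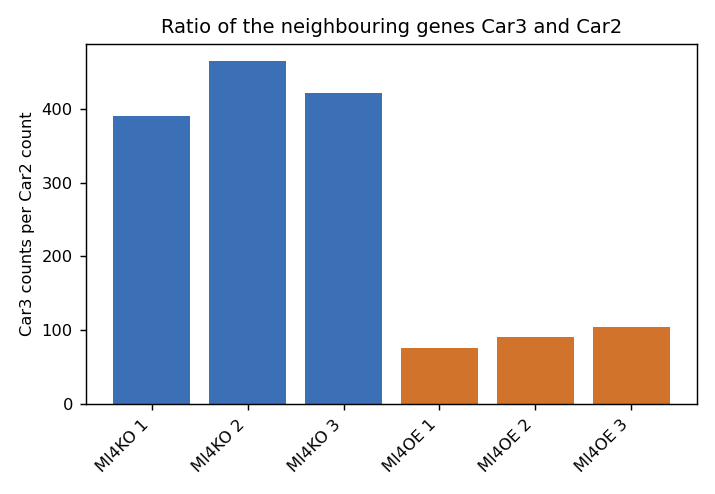
Counts of Car3 for each count of Car2 in the 6 libraries, 1 bar for each library. MI4KO lies between 390 and 464 and MI4OE between 75.8 and 105.

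Car13, a low-level cytosolic enzyme, lies at the other end of the same cluster from Car2. It was at 0.450, 0.634 and 1.38 CPM in the MI4KO libraries against 0.787, 0.315 and 0.265 CPM in MI4OE, and the groups overlapped. Its log2 fold change was -0.88 (SE 0.61) and the adjusted p by edgeR was 0.810. The fold change was -0.29 without MI4KO replicate 3 and -1.49 without MI4OE replicate 1. Car1, which lies between Car13 and Car3 and is an enzyme of red cells, was not among the 9 genes. It was at 0.778, 0.357 and 0.840 CPM in the MI4KO libraries against 0.197, 0.280 and 0.177 CPM in MI4OE, too low for the test.

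Car4, the lipid-anchored enzyme of capillary endothelium and the muscle surface, was at 1.35, 0.634 and 1.48 CPM across MI4KO replicates 1, 2 and 3 and at 6.99, 1.43 and 1.99 CPM across MI4OE replicates 1, 2 and 3. A single library, MI4OE replicate 1, stood far above the other 5. The log2 fold change was 1.57 (SE 0.65), with an unadjusted p of 0.0432 and, by edgeR, an adjusted p of 0.636. Without MI4OE replicate 1 the difference was 0.56 on the log2 scale, at an unadjusted p of 0.253, and the criterion was also missed without any 1 of the MI4KO replicates.

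Car14, a membrane-spanning enzyme of the muscle surface, was the most abundant member after Car3. It was at 44.0, 15.3 and 19.6 CPM across MI4KO replicates 1, 2 and 3 and at 23.6, 8.18 and 13.3 CPM across MI4OE replicates 1, 2 and 3. The groups overlapped, with replicate 1 the highest library of each. The log2 fold change was -0.81 (SE 0.49) with an adjusted p by edgeR of 0.770. The fold change ran from -1.30 without MI4OE replicate 1, where the criterion was met, to -0.23 without MI4KO replicate 1. Car14 overlaps Aph1a in the RefSeq annotation, and its expected counts were not whole numbers in any library. RSEM divides reads that match more than 1 transcript, and which transcripts share the reads of Car14 was not tested. The level of Car14 is uncertain to that extent. The same holds for Car5b and Car8, whose counts were not whole either, although Car8 overlaps no gene in this annotation.

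Car12, the other membrane-spanning member, had 1, 0 and 0 counts in MI4KO and 0, 1 and 5 counts in MI4OE. A count of 0 allows up to 3 counts, or 0.101 to 0.148 CPM by library, so only MI4OE replicate 3, at 0.221 CPM, was above what 0 counts allow. No fold is given.

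Car5b, the mitochondrial enzyme that supplies bicarbonate to carboxylases, was at 2.2, 1.82 and 5.07 CPM across MI4KO replicates 1, 2 and 3 and at 1.77, 0.944 and 0.839 CPM across MI4OE replicates 1, 2 and 3. The groups did not overlap, though MI4KO replicate 2 and MI4OE replicate 1 were close. The log2 fold change was -1.36 (SE 0.49), with an unadjusted p of 0.0262 and, by edgeR, an adjusted p of 0.577. MI4KO replicate 3 carried part of it. Without that library the log2 fold change was -0.78 with an unadjusted p of 0.119, and the criterion was also missed without MI4OE replicate 2 or 3 and by limma on log2(TPM + 1). MI4KO replicate 3 also had the highest adipocyte sum, 3875 CPM, and the part of adipocytes in the level of Car5b was not tested.

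The sequence before the start of a gene was read for Car4 and Car5b, the members that met the study's criterion in opposite directions and have a window in the RefSeq promoter set of GRCm38.p6. Each run is the 250 bases before the annotated start, 5′ to 3′ on the gene's strand, and capitals mark GC boxes (GGGCGG, searched on both strands). Car4 lies at chr11:84957504-84957753 on the plus strand and Car5b at chrX:164028011-164028260 on the minus strand.
Car4: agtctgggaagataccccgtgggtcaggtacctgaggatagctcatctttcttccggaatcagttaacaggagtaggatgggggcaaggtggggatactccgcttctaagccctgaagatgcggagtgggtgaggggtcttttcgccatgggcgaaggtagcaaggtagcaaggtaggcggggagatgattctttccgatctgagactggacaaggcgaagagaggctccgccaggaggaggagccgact
Car5b: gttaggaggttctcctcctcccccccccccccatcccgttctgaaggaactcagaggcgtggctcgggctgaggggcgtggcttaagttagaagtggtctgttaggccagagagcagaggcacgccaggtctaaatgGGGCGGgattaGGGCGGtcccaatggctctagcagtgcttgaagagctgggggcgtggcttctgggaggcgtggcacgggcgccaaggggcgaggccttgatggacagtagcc
The window of Car5b held 2 GC boxes and that of Car4 held 0, and 32.7% of all 32851 windows held at least 1. The core of the interferon-stimulated response element that IRF factors bind, GAAA followed after any pair of bases by GAAA, on either strand, was in 0 of the 6 windows of the 5 members with one (Car4, Car5b, Car11, Car12 and Car14), and in 2.98% of all windows. A match or its absence describes these letters and nothing more.

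Of the members without catalytic activity, Car8 is known for binding the inositol trisphosphate receptor, a calcium channel of the endoplasmic reticulum. It was at 1.02, 2.14 and 2.96 CPM across MI4KO replicates 1, 2 and 3 and at 10.1, 3.36 and 4.86 CPM across MI4OE replicates 1, 2 and 3. Each MI4OE library was above each MI4KO library. The level was 2.97-fold higher in MI4OE, with a log2 fold change of 1.57 (SE 0.51), with an unadjusted p of 0.0162 and, by edgeR, an adjusted p of 0.546. The difference was smaller without MI4OE replicate 1, at a log2 fold change of 0.998 and an unadjusted p of 0.0537, and the unadjusted p was 0.050 without MI4KO replicate 1, where the criterion was just missed.

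Car11, the other inactive member, was at 13.3, 9.51 and 8.67 CPM in the MI4KO libraries against 4.03, 8.32 and 8.48 CPM in MI4OE. MI4OE replicate 1 lay far below the rest, and MI4KO replicate 3 was only just above MI4OE replicates 2 and 3. The log2 fold change was -0.59 (SE 0.31) with an adjusted p by edgeR of 0.728. The fold change was -0.33 without MI4OE replicate 1. Car11 was the only member with its lowest MI4OE value in replicate 1 apart from Car12, which had 0 counts there.

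**Figure D4:**
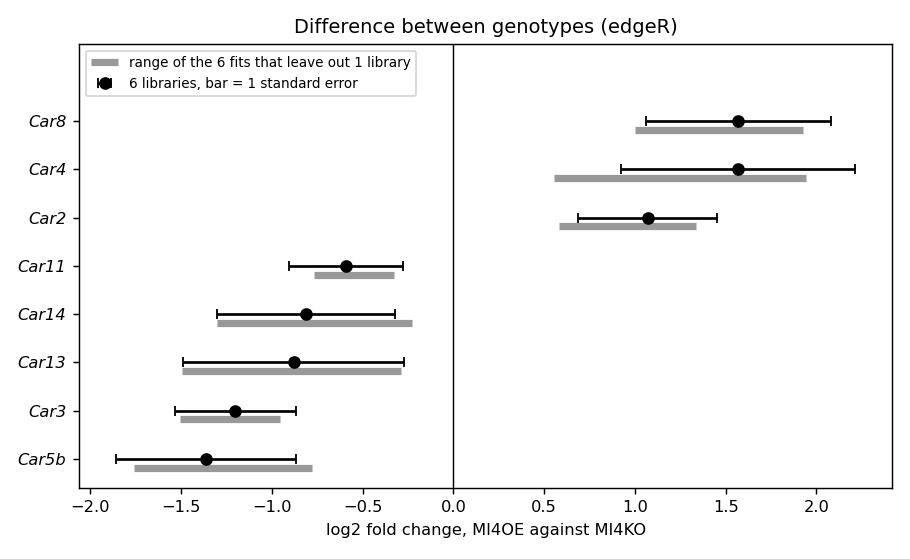
Log2 fold change of MI4OE against MI4KO for the 8 tested genes. Points and black bars give the fit to 6 libraries with 1 standard error, and grey bars the range of the 6 fits that each left out 1 library. No grey bar crosses 0, and the range for Car4 runs from 0.56 to 1.94.

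Car2, Car4 and Car8 were each highest in MI4OE replicate 1, and the slow-fibre, endothelial and erythrocyte lists were highest in the same library. The slow-fibre sum there, 7397 CPM, was further from the other libraries than either of the others. The endothelial list summed to 168, 251 and 264 CPM in MI4KO and to 536, 293 and 332 CPM across MI4OE replicates 1, 2 and 3, without overlap. All 12 of its genes were higher in MI4OE, as were 49.98% of all genes, 6 of the 12 by the study's criterion (4.36% of all genes) and 0 after adjustment, and none was at 0 CPM. The erythrocyte list summed to 113 to 173 CPM in MI4KO and to 463, 162 and 201 CPM in MI4OE, and its 3 tested genes were higher in MI4OE, 1 of them (Alas2) by the criterion and 0 after adjustment. Of its genes, Hba-a2 and Hbb-bs were listed at 0 in each library. The part of slow fibres, vessels and blood in these 3 genes was not tested.

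The Schwann cell list summed to 28.6 to 124 CPM in MI4KO and to 78.2 to 226 CPM in MI4OE, highest in MI4OE replicate 2, with 8 of 8 genes higher in MI4OE, 0 of them by the criterion, and Mag at 0 CPM in MI4KO replicate 1. The macrophage list summed to 29.8 to 47.4 CPM in MI4KO and to 22.0 to 39.8 CPM in MI4OE, with 5 of 7 tested genes lower, 0 by the criterion and none at 0 CPM. The fast-fibre list was lowest in MI4OE replicate 1, at 178949 CPM against 251917 to 332037 CPM in the other 5 libraries. Of its 13 genes 11 were lower in MI4OE, 0 by the criterion, and none was at 0 CPM.

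**Figure D5:**
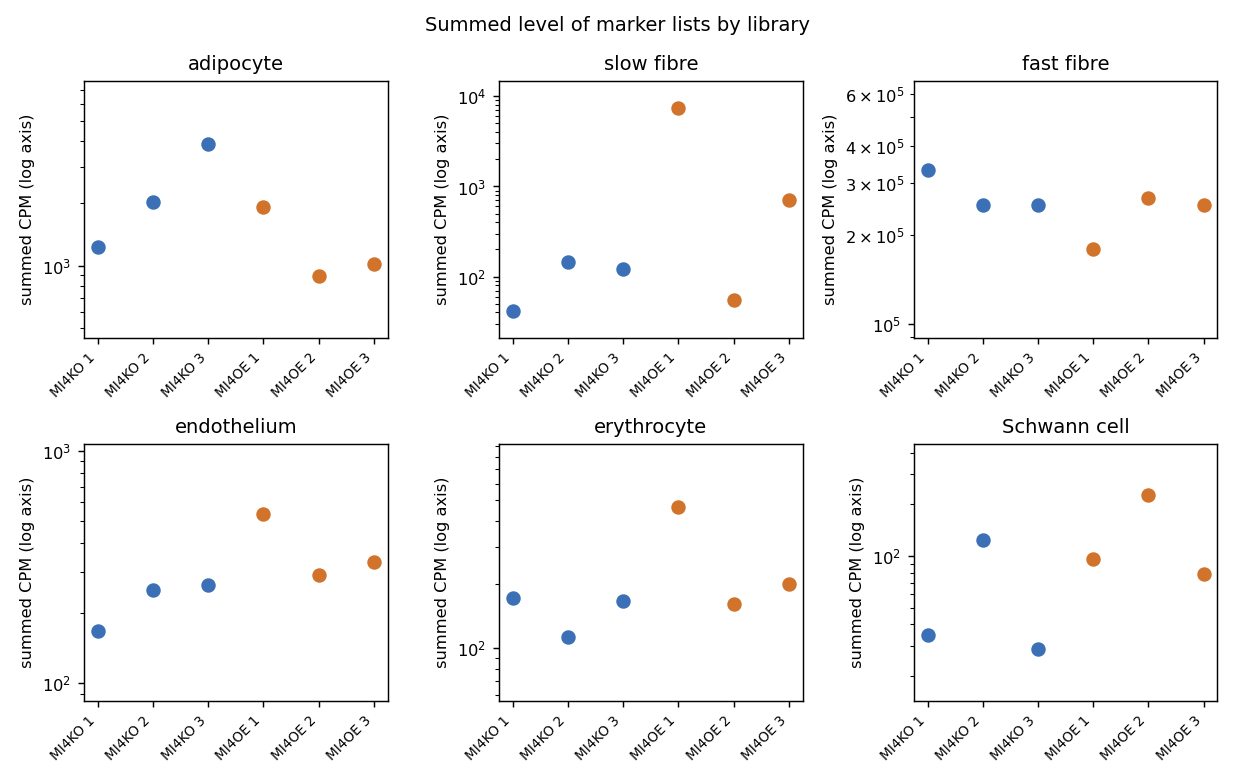
Summed CPM of 6 marker lists in the 6 libraries, on log axes, 1 point for each library. The endothelial sums of MI4OE (293 to 536 CPM) lie above those of MI4KO (168 to 264 CPM), the adipocyte sums overlap, and MI4OE replicate 1 stands apart in the slow-fibre and erythrocyte lists. In the adipocyte list, Lpl, Pnpla2, Fabp4 and Acsl1 are the largest parts of the sum of MI4OE replicate 1.

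The rest of the family and its relatives were mostly at low levels. Of Car1, Car5a, Car6, Car7, Car9, Car10, Car15 and the receptor phosphatases Ptprg and Ptprz1, which carry a carbonic anhydrase-like domain, 3 could be tested. Car9, a membrane enzyme known as a hypoxia marker, was at 3.19, 1.58 and 1.41 CPM in the MI4KO libraries against 0.492, 1.40 and 0.707 CPM in MI4OE. Its log2 fold change was -1.22 (SE 0.50), with an unadjusted p of 0.0427 and, by edgeR, an adjusted p of 0.633, so it met the study's criterion. Car7, a cytosolic enzyme of muscle and brain, was at 0.409, 0.872 and 1.21 CPM in the MI4KO libraries against 2.31, 1.33 and 1.41 CPM in MI4OE, with a log2 fold change of 1.0 (adjusted p = 0.685). For Ptprg the log2 fold change was 0.34 (adjusted p = 0.843). Car6 had 0 counts in each library.

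Carbonic anhydrases work with the carriers of acid, bicarbonate and lactate. In a list of 22 such genes 18 could be tested, and 0 passed an adjusted p of 0.05 by edgeR. At the study's criterion 1 was higher and 1 lower in MI4OE, where 4.36% and 2.28% of all genes were, and the list had a median of -0.10, beside -4.3e-05 over all genes tested. The higher gene was Aqp1, a water channel of endothelium that also passes carbon dioxide, at 171, 180.3 and 165 CPM across MI4KO replicates 1, 2 and 3 and at 395, 239 and 298 CPM across MI4OE replicates 1, 2 and 3. Its groups did not overlap, the log2 fold change was 0.85 (SE 0.22), and the adjusted p was 0.495. The lower gene was Slc4a4, a sodium bicarbonate cotransporter, at 12.4 to 18.1 CPM in MI4KO and 7.13 to 12.3 CPM in MI4OE, with a log2 fold change of -0.61 (adjusted p = 0.626).

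The most abundant of these genes by TPM were Bsg, Slc16a3 and Aqp1. Slc16a3, the lactate and proton exporter of fast fibres, was at 419.9 to 799.8 CPM in MI4KO and 251 to 416 CPM in MI4OE, with a log2 fold change of -0.72 and an unadjusted p of 0.0510. Its chaperone Bsg was at 589 to 758 CPM in MI4KO and 549 to 570.3 CPM in MI4OE, with a log2 fold change of -0.32 (adjusted p = 0.762). The groups did not overlap in either gene, but by narrow margins.

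Genes with profiles like those of single members were ranked by the root-mean-square distance between centred log2(CPM + 0.5) values over the 6 libraries, among 11305 genes. Nearest to Car3 were Syp, Gm20337, Inhbb, Ctss and Igf1, at distances of 0.23 to 0.35, where the profile of Car3 itself had a spread of 0.74. Nearest to Car2 were Ctsh, Kctd1 and Igfbp6, at 0.069 to 0.097 against a spread of 0.65. Nearest to Car4 were Uchl1, Mgp and Ndrg4, at 0.095 to 0.17 against 0.83, and nearest to Car8 were Trp53i11, Myct1 and Tspan2, at 0.091 to 0.17 against 0.86. The profiles nearest to Car2, Car4 and Car8 were all highest in MI4OE replicate 1, where these members were highest. This follows from how the genes were picked. Such likeness over 6 libraries describes levels only.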

How the data were processed

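Per the labels and the methods of the study, stranded mRNA libraries were demultiplexed with bcl2fastq 2.17, aligned by the authors with Bowtie2 2.1.0 to UCSC transcripts and quantified with RSEM 1.2.15. The genome build is not given in the sources used here. The expected counts deposited for each gene are estimates by RSEM without normalization, and the deposited TPM values are adjusted by RSEM for length. The authors' tables of fold changes, p-values and false discovery rates, and the transcript-level files, were not used.

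Expected counts were rounded, filtered with filterByExpr (minimum count 10, minimum total 15), which kept 12660 of 24054 genes, scaled by TMM and fitted with edgeR 4.0.16 (quasi-likelihood, default settings) in R 4.3.3, with Benjamini-Hochberg adjustment over all genes kept. CPM used TMM-scaled library sizes. An exact permutation of 3 against 3 libraries reaches no p below 0.1. No pair of libraries matched within sampling noise. Replicate numbers follow accession order. The study counts 3 gastrocnemius muscles a genotype and the labels number each differently, so libraries were treated as separate samples. Total counts were 18828605 to 29239585, and floors of 3 counts cover counting error only.

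The fit was repeated unfiltered, at a minimum mean CPM of 1, with RLE factors, on library totals, and with TMM factors computed after dropping the top 100 genes. Other tests were the Wald test of DESeq2 1.42.0, the exact test of edgeR, and limma 3.58.1 on log2(TPM + 1) and log2(TPM + 0.1). Each library was also left out. The members and gene lists were chosen with earlier results of these data known. Genes were named by rule: the 9 members, other carbonic anhydrases, transport genes under an unadjusted p of 0.05 or among the 3 highest in TPM, markers that moved with a member, and the 3 to 5 genes of nearest profile.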

Additional observations from a re-analysis of the deposited data

How the results depend on the processing

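The direction of each of the 8 tested carbonic anhydrase genes was the same in all alternatives that gave a value, and Car3 met the study's criterion in each of 15. The count of members at that criterion was 5 and ran from 2, without MI4KO replicate 1, to 4 when single libraries were dropped. Genes below an adjusted p of 0.05 numbered 3, and 111 with DESeq2, 112 with edgeR's exact test, 5 with limma on log2(TPM + 0.1) and 1 to 4 without 1 library, the lowest without MI4KO replicate 1. The 841 genes at the study's criterion were 455 by limma on log2(TPM + 1), and 590 to 1314 without 1 library, the highest without MI4OE replicate 2. The cause was not tested. The mean share of Car3 in MI4OE was 95.3% of counts in place of 96.0% of TPM, since counts are not adjusted for length. Across the leave-one-out values the share ran from 97.5% to 98.4% in MI4KO and from 95.8% to 96.2% in MI4OE. Car3 passed an adjusted p of 0.05 in 1 of 15 alternatives, and its adjusted p ran from 0.0326 to 0.912. Adjusted p ran from 0.264 to 0.971 for Car2, from 0.123 to 0.933 for Car8, from 0.317 to 0.993 for Car4 and from 0.255 to 0.942 for Car5b. No paired analysis was possible because numbers were given to the libraries in accession order and pair nothing. Counts of Car12, and of Car13 at 6 to 41 per library, limit what can be seen of either gene.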
